A study of Mus musculus with 2 samples.

Results

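Lipid-associated macrophages are the lipid-laden macrophages that gather around dying adipocytes in obese fat. The genes described here are 8 that mark these cells: Trem2, Gpnmb, Spp1, Lgals3, Cd9, Cd63, Dcstamp and Ms4a7. They were taken by name as known marker genes of these cells, with earlier results of these data known, and a gene counted as measured where the array annotation gave it a probe set with that symbol alone. By that rule 7 of the 8 were measured, of 19938 genes measured in all. Spp1, which encodes osteopontin, was not analysed here. Each of the 7 had 1 probe set.

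The study compared white adipose tissue labelled as control (Oma1_WT) with that labelled as Oma1-deficient (Oma1_KO). Both groups were 24 weeks old and had received a high-fat diet for 20 weeks, so obesity-inducing feeding was shared by both and lean fat is not analysed here. The product of Oma1 is a stress-responsive protease in the inner membrane of mitochondria. Total RNA was hybridised to Affymetrix Mouse Gene 1.0 ST arrays, which probe a transcript along its length, with 1 array per group. The allele, the strain, the fat depot, the sex and whether RNA of several animals was pooled were not stated in the labels. With 1 array per group the spread between animals was not measured, no difference below has a replicate check, and no test of the genotype was possible.

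In these macrophages, Trem2 is a surface receptor for lipids and lipoproteins that signals through the adaptor Tyrobp. Cells with this programme take up lipid from dying adipocytes and break it down in lysosomes, and in obese fat they lie in crown-like structures. Gpnmb is a lysosomal and surface glycoprotein whose transcription is driven by the MiT/TFE factors, among them Mitf. Dcstamp is a membrane protein needed for the fusion of macrophages and osteoclast precursors into multinucleated cells.

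The regulatory windows of 2 genes are shown because they belong to Trem2, the member with the largest difference between the arrays, and to Gpnmb, a lysosomal member of the same programme with a small difference. Each is the RefSeq window (build GRCm38.p6, plus strand) from 250 bases before to 50 bases after the annotated start, and 7 of the 8 listed genes had such a window. Capitals mark matches on either strand to the 4 motifs searched, CACGTG and CATGTG (E-box forms bound by MiT/TFE factors), TGANTCA (which takes in the AP-1 forms TGACTCA and TGAGTCA) and GAGGAA (a core of sites of the myeloid factor PU.1).
Trem2, chr17:48346151-48346450: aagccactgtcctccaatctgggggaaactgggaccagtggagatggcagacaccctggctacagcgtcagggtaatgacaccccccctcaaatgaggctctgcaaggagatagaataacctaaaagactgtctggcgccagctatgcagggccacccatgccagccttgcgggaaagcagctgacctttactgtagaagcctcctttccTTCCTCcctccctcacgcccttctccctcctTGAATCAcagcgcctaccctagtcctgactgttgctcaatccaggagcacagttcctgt
Gpnmb, chr6:49036268-49036567: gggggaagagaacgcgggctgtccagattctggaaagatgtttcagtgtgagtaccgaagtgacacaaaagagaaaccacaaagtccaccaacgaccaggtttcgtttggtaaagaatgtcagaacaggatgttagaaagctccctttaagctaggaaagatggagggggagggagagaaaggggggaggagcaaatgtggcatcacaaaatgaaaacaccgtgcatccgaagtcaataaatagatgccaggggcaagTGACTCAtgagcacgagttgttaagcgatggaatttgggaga
In the Trem2 window TGAATCA, a match to TGANTCA but neither of the AP-1 forms, began at base 242 of the 300, and TTCCTC, the reverse complement of GAGGAA, began at base 211. The Gpnmb window held TGACTCA, an AP-1 form, beginning at base 259, which is after the start. Over the 9 windows of the listed genes, TGANTCA was present in 3, GAGGAA in 4, CATGTG in 2 and CACGTG in 0. Of all 32851 promoter windows of this length, 7.81% held TGANTCA, 28.3% GAGGAA, 14.2% CATGTG and 7.15% CACGTG. A match describes letters in the window and does not show that a factor binds there. No matched motif overlapped another in either printed window.

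Of the 7 measured genes, Trem2 alone differed by 1.2-fold or more between the arrays, at 1.44 times its control intensity in Oma1-deficient fat. The other 6 lay within 1.12-fold of the control array. Values are deposited intensities on a linear scale, and differences are those of log2(intensity + 1), Oma1-deficient minus control. All 7 passed the filter on dim genes, a mean over both arrays at or above an intensity of 83, the median of all probe sets.

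Trem2 read 1553 in control fat and 2241 in Oma1-deficient fat, a log2 difference of 0.53. Of the 11398 other genes above the filter, 178 (1.56%) had a difference at least as high. The SD between probe sets of 1 gene, from 545 genes with exactly 2 probe sets, was 0.17, so the Trem2 difference was 3.12 times this measure of technical disagreement. That SD holds only the scatter of probe sets and leaves out the variation between mice.

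Ms4a7, a tetra-spanning membrane protein of macrophages, read 679 in control and 744 in Oma1-deficient fat, a log2 difference of 0.13. It was higher in the Oma1-deficient array by less than the SD between probe sets. For this gene 17.1% of other genes above the filter had a difference at least as high.

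Gpnmb read 5373 in control fat and 5787 in Oma1-deficient fat, a log2 difference of 0.11. Lgals3, which encodes galectin-3, a lectin that binds damaged lysosomes and glycoproteins, read 5151 and 5027, a log2 difference of -0.04. Both values lay inside the SD between probe sets. Gpnmb and Lgals3 were far above the filter intensity on both arrays, so dimness does not limit these values. The sign of the Lgals3 difference depended on the scaling, being -0.01 after quantile normalisation, 0.002 after a loess correction and 0.03 after centring on the median of all genes.

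The tetraspanins, which organise other membrane proteins into domains, were the next pair. Cd9, found at the surface of these macrophages and of many other cell types, read 911 in control and 1020 in Oma1-deficient fat, a log2 difference of 0.16. Cd63, of late endosomes and lysosomes and also of mast cell granules, read 1817 and 1775, a log2 difference of -0.03. Cd9 was thus the higher and Cd63 the lower of the pair in the Oma1-deficient array, both by less than the SD between probe sets. The Cd63 difference was -0.02 after quantile normalisation, 0.01 after loess and 0.03 after centring, so its sign was not fixed either.

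Dcstamp read 325 in control and 337 in Oma1-deficient fat, a log2 difference of 0.05. It was above the filter on both arrays, and its difference lay inside the SD between probe sets.

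**Figure D1:**
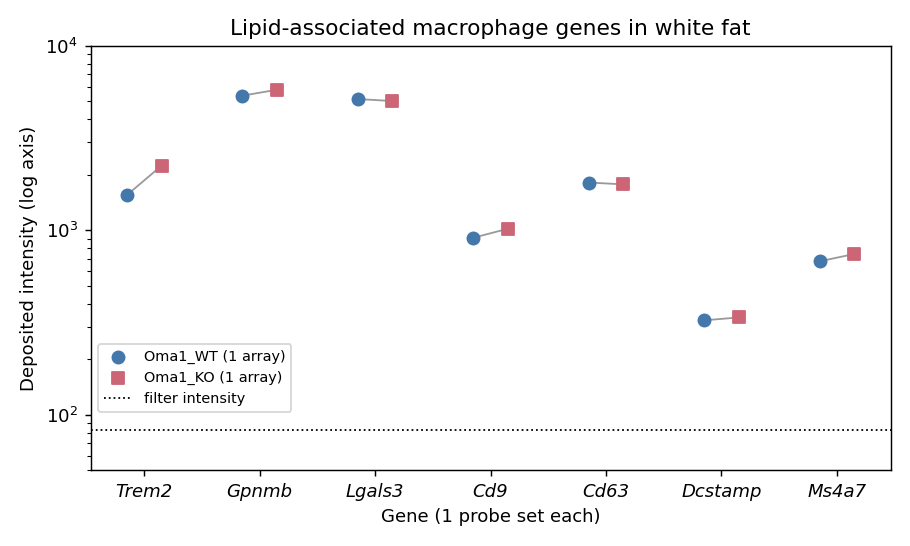
Deposited intensity (log axis) of the 7 measured genes in the Oma1_WT array (circles) and the Oma1_KO array (squares), 1 array per group and no error bars. The line of Trem2 climbs from 1553 to 2241, the other 6 lines are nearly flat, and all points lie above the filter intensity (dotted); heights are not comparable between genes, since each has its own probes.

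Counted together, 5 of the 7 were higher and 2 lower in the Oma1-deficient array, with a median difference of 0.11. Over all 11399 genes above the filter, 36.6% were higher and 62.3% lower, with a median of -0.06. After centring on that median 5699 of all genes were higher and 5699 lower, and 7 of the 7 were higher. After loess the split was 49.9% and 50.1%, again with 7 of 7 higher, and after quantile normalisation 46.9% and 52.2%, with 5 of 7 higher. Without Trem2 the median of the other 6 was 0.08.

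Of the 7, 1 (Trem2) was at least 1.2-fold higher, against 7.13% of all genes above the filter, and 0 were at least 1.2-fold lower, against 14.6%. A size of 1.5-fold was reached by 0 of the 7 as deposited, against 1.23% of all genes higher and 1.74% lower. Trem2 lay just under that size, and after centring it passed it, at 0.59. With 7 genes, a count of 1 gives a share that cannot be set firmly against the background.

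**Figure D2:**
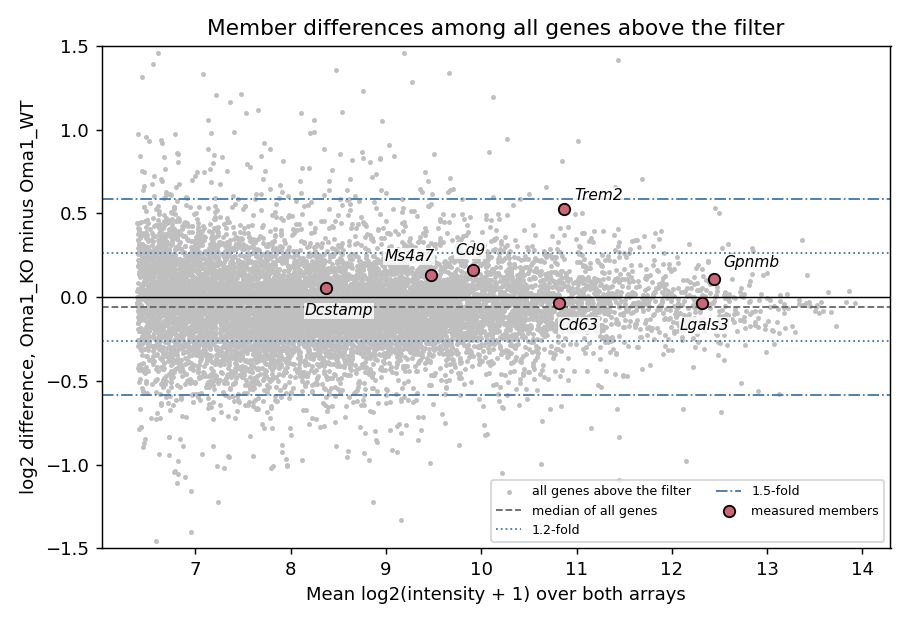
Log2 difference, Oma1_KO minus Oma1_WT, against mean log2(intensity + 1) for the 11399 genes above the filter (grey) and the 7 measured genes (red), with lines at 1.2-fold and 1.5-fold; 19 genes beyond 1.5 on the log2 scale are outside the plot. Trem2, at 0.53, stands between the lines of both sizes, and the other 6 lie between -0.04 and 0.16 inside the grey band.

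Genes that act with Trem2 held both directions. Of 13 measured genes of its signalling, ligands and shedding, 9 were higher and 4 lower, with a median of 0.16. A size of 1.5-fold was reached by 0, near the shares of all genes above the filter, 1.23% higher and 1.74% lower. Above the filter were 12, of which 8 were higher, against 36.6% of all genes. At 1.2-fold or more 2 of the 12 were higher, against 7.13% of all genes, and 0 were lower, against 14.6%. Apoe, a lipoprotein component that Trem2 binds, read 9365 in control and 11864 in Oma1-deficient fat (log2 difference 0.34). Inpp5d, a lipid phosphatase that restrains signalling from such receptors, read 589 and 716 (0.28). Tyrobp, the adaptor that carries the Trem2 signal, read 3866 and 4311, a difference of 0.16, smaller than that of the receptor itself. The 4 lower genes, named after their values were seen, were Adam10, a protease that sheds Trem2, at 829 and 701 (-0.24), Pik3r1, a kinase subunit, at 2022 and 1768 (-0.19), Clu, a lipoprotein component, at 897 and 815 (-0.14), and Vav3, a signalling protein, at 291 and 286 (-0.02).

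Apoe is also made by hepatocytes, and liver transcripts moved the same way. All 7 measured liver markers were higher, with summed intensities of 3317 and 7871, among them Alb, which encodes albumin, at 1692 and 4523, and Ttr, a carrier of thyroid hormone, at 381 and 717. Above the filter were 6 of these markers, all higher, against 36.6% of all genes. The part of the liver transcripts in the Apoe value was not tested.

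The TREM relatives were dim, with 2 of 5 above the filter. Of the 5, 3 were higher and 2 lower, with a median of 0.09. Treml4, a related myeloid receptor, read 143 and 107 (-0.42), opposite in direction to Trem2, and it was the only one of the 2 to reach 1.2-fold. Treml1, the other of the 2 and named after its value was seen, read 177 and 189 (0.09), in the same direction as Trem2. Of all genes above the filter 14.6% were at least 1.2-fold lower.

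The wider lipid-associated programme, 30 genes of lipid uptake, lysosomal breakdown and efflux, held genes of both directions. Of these 18 were higher and 12 lower, with a median of 0.02. Among the 29 above the filter 18 were higher, against 36.6% of all genes, whose median was -0.06. Of the 29, 5 passed 1.2-fold on the higher side, against 7.13% of all genes, and 2 on the lower, against 14.6%. A size of 1.5-fold was reached by 0, against 1.23% of all genes higher and 1.74% lower. Abcg1, a sterol exporter, read 1042 in control and 1465 in Oma1-deficient fat (0.49), and Msr1, a scavenger receptor for modified lipoproteins, read 654 and 814 (0.32). Axl, a receptor for dying cells, read 1072 and 1376 (0.36), and Csf1, the growth factor of macrophages, 597 and 773 (0.37). Apoe, given above, was the other gene past that size.

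The lower pair was named after their values were seen. Ctsl, a lysosomal protease, read 7684 and 6306 (-0.29), and Fabp5, a fatty acid binding protein, 2821 and 2345 (-0.27). Cd68, a lysosomal protein of macrophages, read 5616 and 5626, a difference of 0.003.

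Some genes of this programme are also adipocyte genes. Fabp4, the fatty acid binding protein of fat, read 7685 and 6813 (-0.17) and Lpl, lipoprotein lipase, 10389 and 9210 (-0.17). Over the 9 measured adipocyte markers 8 were lower, against 62.3% of all genes above the filter. Their median was -0.12, with summed intensities of 55319 and 48942, and Cidec, a lipid droplet protein, read 10771 and 9316. Of the adipocyte markers, 9 of 9 were above the filter, so the defining markers of the labelled tissue were present. Without Fabp4, Lpl, Cd36 and Plin2 the wider programme, at 26 genes, had a median of 0.02, the same to 2 decimals as with them; this choice was added after the data were seen.

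Genes of cell fusion and of the osteoclast programme held 13 that were higher, and osteoclast markers were found in both directions. The median of 17 measured genes was 0.21, and 13 were higher, 3 lower and 1 equal. Above the filter were 14, of which 11 were higher, against 36.6% of all genes. At 1.2-fold 5 of the 14 were higher, against 7.13% of all genes, and 0 lower, against 14.6%. Besides Csf1, these 5 were Csf1r, its receptor on macrophages, at 2482 and 3122 (0.33), Clcn7, a lysosomal chloride transporter, at 524 and 644 (0.30), Tcirg1, a proton pump subunit, at 1302 and 1583 (0.28), and Car2, carbonic anhydrase, at 117 and 144 (0.30). Ocstamp, the partner of Dcstamp in fusion, read 118 and 123 (0.06), as small a difference as that of Dcstamp. The osteoclast markers that follow were named after their values were seen. Atp6v0d2 was higher, at 2554 and 3021 (0.24). So were Oscar, at 45 and 54 (0.26), and Calcr, at 24 and 30 (0.31), both below the filter. Acp5, an acid phosphatase, read 2833 and 2388 (-0.25), and Ctsk, a bone-degrading protease, 963 and 977 (0.02). Nfatc1, the transcription factor of osteoclasts, read 338 on both arrays, and Tnfrsf11a, the receptor for their differentiation factor, 322 and 321. Mmp9, a matrix protease, was below the filter at 59 and 55 (-0.10).

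Of 5 measured markers of bone, 0 passed the filter, and 2 of them, Oscar and Calcr, are also in the fusion list. Oscar, an osteoclast receptor, read 45 and 54, and Sp7, an osteoblast factor, 33 and 34.

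The families of the other members held genes of both directions. Over all genes above the filter 36.6% were higher and 62.3% lower. The 22 tetraspanins and partner proteins had a median of -0.01, which became 0.01 after loess, and 8 were higher, 13 lower and 1 equal. The counts depended on the scaling. After quantile normalisation 10 were higher and 12 lower, after loess 11 and 11, and after centring 13 and 9. Above the filter were 20, as deposited 8 higher and 12 lower. Of these, 3 were past 1.2-fold on the higher side, against 7.13% of all genes, and 4 on the lower, against 14.6%. Tspan13 read 1769 in control and 1158 in Oma1-deficient fat (-0.61), the largest difference in this family. Tspan6 read 849 and 590 (-0.52), Tspan5, a regulator of Adam10 trafficking, 808 and 617 (-0.39), and Ptgfrn, a partner protein of Cd9, 509 and 403 (-0.34). Tspan4 went the other way, at 2055 and 2578 (0.33).

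The Ms4a family, with 13 genes, had a median of -0.06, from 5 higher, 7 lower and 1 equal. Of the 8 above the filter, 4 were higher and 4 lower. Of these 8, 2 passed 1.2-fold on the higher side, against 7.13% of all genes, and 4 on the lower, against 14.6%. Ms4a6d, another myeloid member, read 902 and 1245 (0.46), and Ms4a15 87 and 117 (0.42). Ms4a4a read 237 and 166 (-0.51), Ms4a4c 99 and 75 (-0.40) and Ms4a4d 807 and 647 (-0.32). Ms4a7, at 0.13, lay between these groups. The Ms4a4c value in the Oma1-deficient array was under the filter intensity, and the Ms4a15 control value was just above it. The sizes of these 2 differences are therefore uncertain.

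Among 8 genes of galectins and their binding protein 3 were higher and 5 lower, with a median of -0.04 that became 0.01 after loess. Lgals4, an epithelial galectin, read 82 and 150 (0.86); its control value was under the filter intensity, so the size of its difference is uncertain. Above the filter were 6, of which 2 were higher and 4 lower, and Lgals4 was the only one of them past 1.2-fold. Of all genes above the filter 7.13% were at least 1.2-fold higher and 14.6% lower.

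Among the MiT/TFE factors that drive Gpnmb, Mitf, averaged over 2 probe sets, read 88.1 and 91.3 (0.05). These values lay just above the filter intensity of 83, and the 2 probe sets differed. With only the brighter one, the median of the list of these factors and Pmel went from 0.05 to 0.20. Of the 4 factors measured, all above the filter, 2 were higher and 2 lower, while Gpnmb was slightly higher. Tfec, a member of this family in macrophages, read 164 and 125 (-0.39). Tfeb and Tfe3, named after their values were seen, read 268 and 307 (0.20), and 854 and 785 (-0.12). With the Mitf probe sets averaged, Tfec alone of the 4 factors measured, the others being Mitf, Tfeb and Tfe3, passed 1.2-fold. Of all genes above the filter 14.6% were at least 1.2-fold lower.

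The receptors of osteopontin, the product of Spp1, were measured although Spp1 itself was not analysed here. Of 9 genes, 5 were higher, 3 lower and 1 equal. Of the 8 above the filter 0 reached 1.2-fold, against 7.13% of all genes higher and 14.6% lower. Cd44, one such receptor and a marker of activated leukocytes, read 468 and 503 (0.10).

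**Figure D3:**
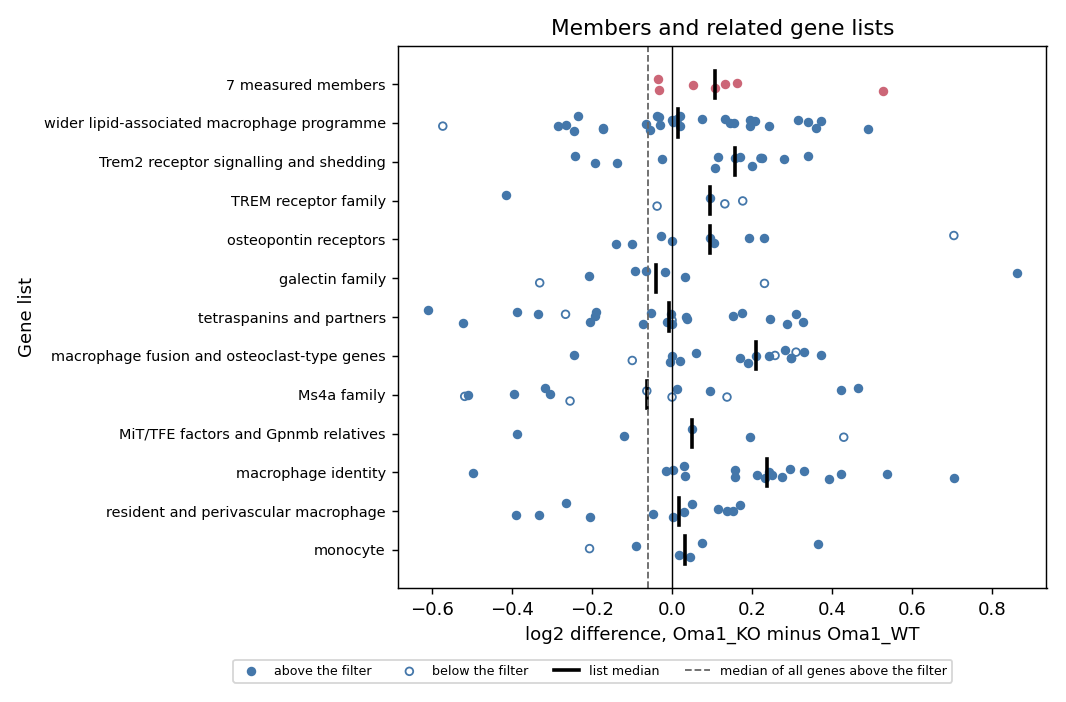
Log2 difference, Oma1_KO minus Oma1_WT, of each measured gene in the 7 measured members and the 12 related lists; filled points passed the filter, open points did not, and black bars are list medians. The macrophage identity median (0.24) and the fusion list median (0.21) lie farthest above the median of all genes (-0.06, dashed), and the wider programme straddles 0.

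General macrophage genes had a higher median difference than the lipid-associated members. Of 18 macrophage identity genes, all above the filter, 16 were higher and 2 lower, with a median of 0.24 and summed intensities of 47017 and 53598. Over all genes above the filter 36.6% were higher and 62.3% lower. At least 1.2-fold higher were 7 of the 18, against 7.13% of all genes, and 1 was as much lower, against 14.6%. Fcgr1, an immunoglobulin receptor, read 308 and 503 (0.71), Aif1, a cytoskeletal protein of macrophages, 101 and 147 (0.54), Cd14, a receptor for bacterial lipopolysaccharide, 298 and 400 (0.42), and C1qa, a complement subunit, 2167 and 2845 (0.39). Adgre1, which encodes the F4/80 antigen, read 2497 and 2896 (0.21). Mertk, a receptor for dying cells, was the lower exception past 1.2-fold, at 664 and 470 (-0.50). Some, named after their values were seen, differed little. They were Fcer1g at 3555 and 3627 (0.03), Laptm5 at 4419 and 4521 (0.03) and Itgam at 721 and 713 (-0.02).

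Set beside these genes, Trem2 exceeded 16 of the 18 and lay 0.29 above their median. The other 6 members lay below that median, Cd9 by the least and Lgals3 and Cd63 by the most, and each of Lgals3 and Cd63 had 17 of the 18 above it. In a whole tissue, more cells of a type and more RNA per cell cannot be told apart, so the general macrophage values stand beside the Trem2 value, and their part in it was not tested.

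Genes of resident and perivascular macrophages held both directions. Over all genes above the filter 36.6% were higher and 62.3% lower. Of 12 resident and perivascular genes, all above the filter, 7 were higher and 5 lower, with a median of 0.02. At least 1.2-fold lower were 3, against 14.6% of all genes, and 0 were as much higher, against 7.13%. The 3 were Cd163, a scavenger receptor for haemoglobin, at 243 and 185 (-0.39), Lyve1, a hyaluronan receptor, at 929 and 737 (-0.33), and Cd209f, a lectin, at 434 and 361 (-0.27). Of 6 measured monocyte genes 4 were higher and 2 lower, with a median of 0.03. Above the filter were 5, of which 4 were higher and 1 lower. Ccr2, the receptor that brings monocytes into fat, read 360 and 464 (0.37). It alone of the 5 passed 1.2-fold, against 7.13% of all genes higher and 14.6% lower. The others of the 5, named after their values were seen, were Fn1 at 6974 and 7340 (0.07), Plac8 at 186 and 192 (0.05), Itgal at 168 and 170 (0.02) and Vcan at 480 and 451 (-0.09).

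Other cell types of the tissue also differed between the arrays, and Cd9, Cd63 and Lgals3 are made by several of them. The marker counts that follow include dim genes. Over all 19938 genes measured, 9356 were higher, 9543 lower and 1039 equal, against 36.6% higher and 62.3% lower above the filter. Above the filter 4 of 5 mast cell, 4 of 7 dendritic cell, 1 of 2 neutrophil and 2 of 2 erythroid markers were higher. The B cell and the T and NK cell markers above the filter, 4 of each, were all lower. All endothelial, mesothelial, fibroblast and smooth muscle markers passed the filter. Mast cell markers were higher in 6 of 8, with summed intensities of 1152 and 1840, led by the proteases Cpa3 at 282 and 663 and Mcpt4 at 215 and 426. The 2 lower ones, named after their values were seen, were Kit at 212 and 187 (-0.18) and Tpsab1, below the filter, at 53 and 34 (-0.63). All 8 endothelial markers were lower (sums of 9219 and 7132), among them Cdh5, a junction protein, at 3067 and 2425 and Emcn at 1328 and 1050. Mesothelial markers were lower in 6 of 7 (sums of 2248 and 1525), with Upk3b at 773 and 455 and Lrrn4 at 395 and 238. The higher one, named after its value was seen, was Wt1 at 178 and 214 (0.26). The dendritic cell list had 6 of 10 higher (sums of 15601 and 20321), where the class II genes H2-Aa and H2-Ab1, also made by macrophages, read 4674 and 6754, and 4857 and 6866. These sums rest largely on H2-Aa, H2-Ab1 and Cd74 (4952 and 5753), and after loess the list had 5 of 10 higher and its median went from 0.05 to -0.003. Other members, named after their values were seen, were lower, Cd209a at 560 and 397 (-0.50), Ccr7 at 163 and 151 (-0.11), Zbtb46 at 122 and 116 (-0.07) and Itgae, below the filter, at 70 and 60 (-0.22).

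B cell markers were lower in 6 of 6 (sums of 1005 and 725, Cd79b at 437 and 306, Cd22 at 146 and 137), and T and NK cell markers in 6 of 8 (sums of 912 and 794, Nkg7 at 305 and 241, Cd3e at 244 and 210). Neutrophil markers were higher in 5 of 8, lower in 2 and equal in 1 (sums of 556 and 578, S100a8 at 165 and 134, Csf3r at 107 and 144), with 2 above the filter. Fibroblast and progenitor markers were lower in 5 of 7 (sums of 15938 and 15575, Dcn at 9396 and 9142, Lum at 1512 and 1947). Smooth muscle and pericyte markers were higher in 5 of 8 (7 of 8 after quantile normalisation, loess or centring), with a median of 0.21 and sums of 6063 and 6454. The brightest, Acta2 at 3314 and 3295 and Rgs5 at 980 and 948, were slightly lower as deposited. Others, named after their values were seen, were higher, Cnn1 at 96 and 201 (1.06), Cspg4 at 359 and 591 (0.72), Tagln at 263 and 351 (0.42) and Myh11 at 292 and 389 (0.41). Erythroid genes were higher in 3 of 3 (sums of 836 and 1076, Alas2 at 668 and 855, Slc4a1 at 134 and 182). Of all these markers 0 were at an intensity of 0. Their part in the values of the 7 genes was not tested.

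The targeted gene did not settle the label. Oma1 read 187 in the control and 155 in the Oma1-deficient array (-0.27) on its single probe set, and which part of the transcript was altered was not stated in the labels. Deposited intensities ran from 8 to 21216 and from 8 to 21365 over 35512 probe sets, with a median of 83 on both arrays.

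**Figure D4:**
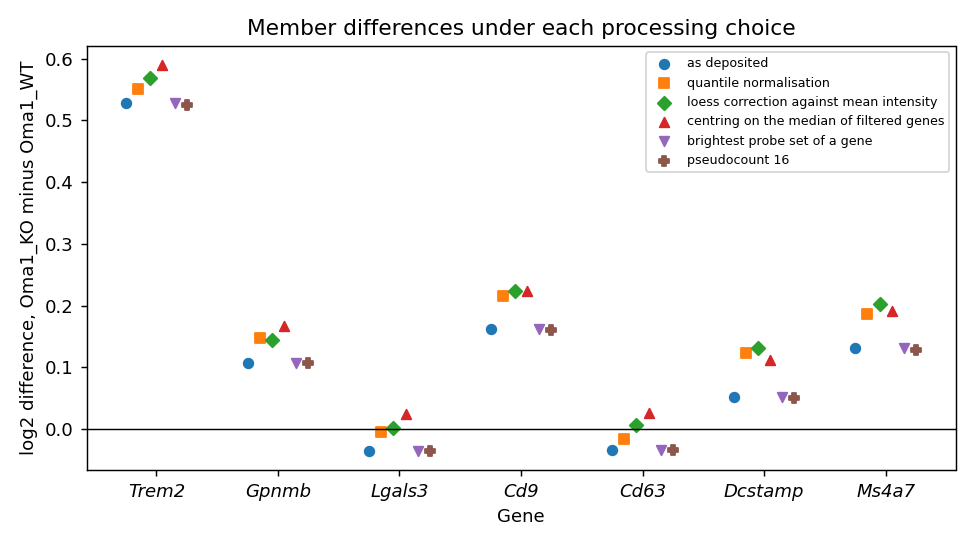
Log2 difference of the 7 measured genes, Oma1_KO minus Oma1_WT, with values as deposited and under 5 other processing choices. Trem2 stays between 0.52 and 0.59 throughout, whereas Lgals3 and Cd63 move across 0.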

How the data were processed

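The values deposited by the authors are linear intensities in whole numbers, 1 for each probe set on each array. The RNA was isolated with Trizol and carried a biotin label, per the labels' protocols. How the authors corrected background, summarised probes and scaled the arrays, and with which software, was not given in the sources used here. Gene symbols came from GEO's platform annotation; 21789 of 35512 had a single symbol, 1621 several and 12102 none, and only the first entered gene values. Intensities were put on the log2 scale after adding 1, which understates the change of dim genes, and probe sets of 1 gene were averaged. The filter kept 11399 of 19938 genes (57.2%), those whose mean reached the median of all probe sets. Sizes of 1.2-fold and 1.5-fold are descriptions, not tests, and the number of arrays (1 per group) limits the precision.

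The members and lists were chosen with earlier results of these data known. Named genes were the members, up to 5 genes per related list above the filter and at least 1.2-fold different, 12 fixed genes, and the 2 brightest markers per cell type. The arithmetic of the differences was checked by adding set changes to shuffled differences of these genes. No noise between arrays or mice was simulated, so the check cannot say how reliable a difference is. Alternatives were quantile normalisation, loess (fraction 0.3), centring, the brightest probe set, a pseudocount of 16 and other filters. A search for protein motifs was planned and not run. Python 3.11.15, numpy 2.4.6, pandas 2.3.3, statsmodels 0.14.6 and matplotlib 3.10.9 were used.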

Additional observations from a re-analysis of the deposited data

How the results depend on the processing

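No paired analysis was possible because each group had 1 array, and for the same reason no array could be left out. All alternatives were planned, except leaving Fabp4, Lpl, Cd36 and Plin2 out of the wider programme. The differences of the 7 genes and the list medians moved by less than the SD between probe sets (0.17) under every scaling, probe set and pseudocount alternative. The median of the 7 ranged from 0.11 to 0.17. The count of the 7 at least 1.5-fold higher was 0 as deposited and 1 (Trem2) after centring, and it was 0 under the other alternatives. Of all genes above the filter, 813 were at least 1.2-fold higher and 1663 lower. Centring made these 1243 and 1096. Without a filter 2062 were at least 1.2-fold higher, and with a filter set at the upper quartile 283 were higher and 732 lower. At 1.5-fold, 140 were higher and 198 lower; 219 were higher without a filter, and 52 higher and 81 lower at the upper quartile. Trem2 at the smaller size was called under each alternative.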
